A study of Mus musculus with 9 samples.

Results

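Tumours grown from the mouse mammary cancer cell line Met1 were compared with tumours grown from the line SSM2, gene by gene and pathway by pathway. The comparison rests on the 6 samples whose titles begin with Met1 (3) or SSM2 (3), of 9 samples in the series. It covers 19938 genes, each read from 1 feature of an Affymetrix Mouse Gene 1.0 ST array, and gives the difference of group means in log2 RMA signal as Met1 minus SSM2. RMA, robust multi-array averaging, corrects background, equalises the arrays and combines the probes of a feature, so that a difference of 1 on its log2 scale is a 2-fold difference in signal. The 3 arrays of the line NDL entered the shared estimate of the spread and, for genes with several features, the choice of the feature with the highest mean signal. Both groups were made alike per the labels: cells kept in culture were injected on both sides into uncleared mammary fat pads, and the hosts were FVB/NJ females of 6 to 8 weeks (the strain field reads FVB/N). The tumours were snap-frozen after reaching a width of 5 to 10 mm. Every sample carries the same ranges of cell number, host age and width, so the labels do not show whether the lines had equal values within them. No treatment or genotype is given for either line. As background, Met1 came from a tumour driven by a polyoma virus middle T transgene, while SSM2 is known as a line with hormone receptors. An uncleared fat pad still holds the host's own mammary epithelium, fat, vessels and immune cells, and each of these can contribute RNA to a tumour sample. Each line is a single line, so a difference between Met1 and SSM2 is a difference between these lines and not between oncogenes. The labels do not say that the 3 samples of a line came from separate animals or tumours, and each p-value measures only the spread between these samples. The series title sets the data in work on a mammary cancer model for immunotherapy trials.

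Luminal mammary tumour cells are epithelial: they make simple keratins, hold to their neighbours by tight junctions, desmosomes and E-cadherin, and keep an apical and a basal side. Transcription factors of the Zeb, Snai and Twist families can lower that programme and raise mesenchymal genes such as those for N-cadherin and vimentin. Polyoma middle T is a membrane scaffold that feeds the Ras-ERK and PI3-kinase pathways, and active ERK is known to induce its own inhibitors (Spry and Dusp genes) along with Etv factors and cyclin D1.

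In limma 2356 of the 19938 genes (11.8%) passed at an adjusted p under 0.05, of which 1416 (7.1%) were higher and 940 (4.71%) lower in Met1. The median difference over all genes was 0.04. Arrays of the 2 lines did not overlap in many genes: Met1 lay above SSM2 in 18.6% of all genes and below in 13.1%. A lack of overlap in a single gene is therefore common here. Some gene lists described below had a share called near 11.8%, such as endothelium (11.1%), T and NK cells (11.5%), chemokines (13.3%), p53 targets (13.3%) and antioxidant genes (13.6%). Wnt ligands (10.5%), contractile genes (13.3%) and the list of D cyclins and CDK inhibitors (14.3%) were near it as well. By count such lists do not differ much from all genes. Counts depended on the Met1 arrays: 1360 genes passed without Met1 replicate 1 and 1436 without Met1 replicate 2. Over genes, which are not independent replicates, the Met1 arrays correlated with each other at 0.9874 to 0.9954 and the SSM2 arrays at 0.9623 to 0.9828, against 0.9298 to 0.9487 between the lines. Some differences within the lines stand before the results. The SSM2 arrays differed in the signal of host cell types: the mean of 13 adipocyte genes was 8.12, 7.46 and 6.11 in SSM2 replicates 1 to 3, and the mean of 17 fibroblast genes was 8.42, 7.81 and 7.16. Met1 replicate 3 had the lowest mean of the Met1 arrays in each of 7 epithelial gene lists, and Epcam, an epithelial adhesion molecule chosen here after its values were seen, had Met1 values of 8.11, 8.85 and 5.25 and SSM2 values of 10.59, 10.46 and 10.60. The number of arrays limits the precision. A mean under 4.91, the 25th percentile of gene signal, lies near background, and the size of a difference from such a mean is uncertain.

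**Figure D1:**
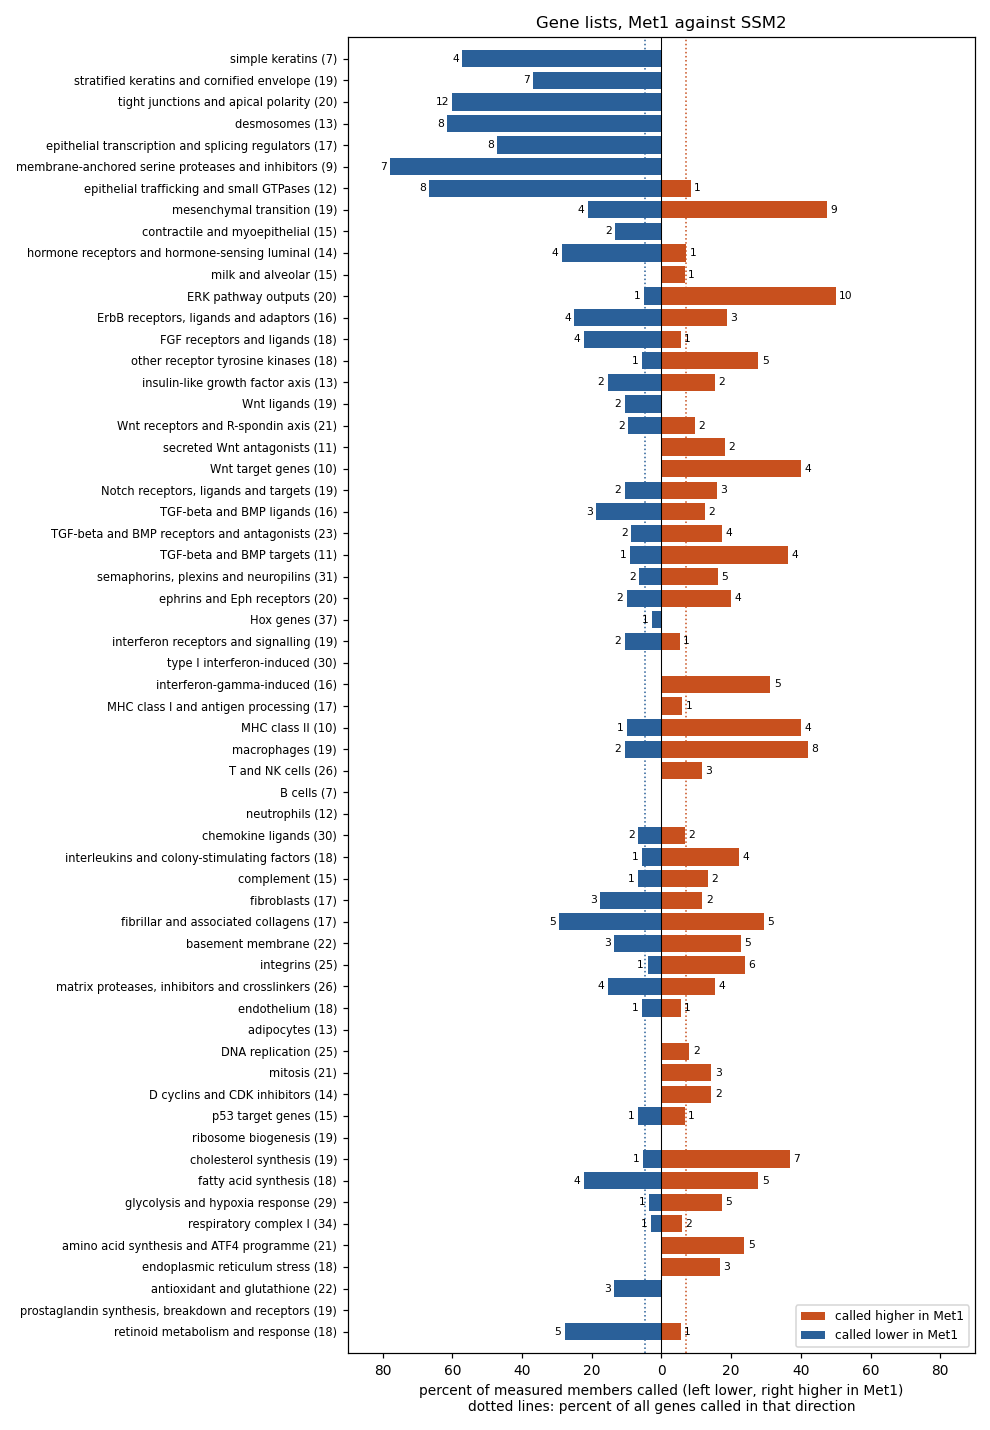
Percent of the measured members of each of 60 gene lists called lower (blue, left) or higher (orange, right) in Met1 than in SSM2, with the number called beside each bar and the number measured in brackets. The 7 epithelial lists at the top were called lower in at least 36.8% of members, against 4.71% of all genes (dotted line).

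Genes of the epithelial programme were lower in Met1, from filaments to junctions to regulators. Of 7 simple keratins 4 were lower and none higher (median difference -3.45). Krt8 stood at 8.45, 8.41 and 6.81 in Met1 and 12.84, 12.52 and 13.33 in SSM2. Its partner Krt18 stood at 9.14, 9.20 and 8.04 against 12.06, 11.87 and 12.78. In both cases all SSM2 arrays lay well above all Met1 arrays, and Met1 replicate 3 was the lowest. Krt8 was 32.2-fold lower (log2 difference -5.01, SE 0.43, adjusted p = 0.000265) and Krt18 10.9-fold lower (-3.45, SE 0.34, adjusted p = 0.000483). Krt7 followed at -4.40. Krt19 stood at 5.09, 5.37 and 5.01 against 13.48, 13.32 and 13.40, a difference of -8.24 that no other gene exceeded in size, and a gap without overlap. Keratins and envelope proteins of stratified epithelium were lower in 7 of 19 members (median -0.64), among them Sprr1a (-6.30), a cornified envelope precursor, Krt15 (-4.49), Krt14 (-4.25), Krt17 (-3.33) and Sfn (-2.84). Krt5, the basal keratin partner of Krt14, did not pass: it stood at 8.46, 9.43 and 5.21 in Met1 and 10.66, 11.64 and 9.66 in SSM2 (adjusted p = 0.0993).

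Tight junction and polarity genes were lower in 12 of 20 members (median -1.39), and 18 of the 20 had a difference below 0. None was higher, although 1 was in the fits without NDL replicate 3 or without SSM2 replicate 1. Cldn4, a claudin that seals the junction, stood at 6.72, 6.40 and 6.20 in Met1 and 11.84, 11.08 and 11.52 in SSM2. The replicates of each line lay close together and the lines did not overlap. It was 32.9-fold lower in Met1 (log2 difference -5.04, SE 0.24, adjusted p = 2.24e-05). Cldn7 (-3.52), occludin (Ocln, -2.83), Lsr (-2.51) and tricellulin (Marveld2, -2.40), the last a protein of corners where 3 cells meet along with Lsr, were lower too, each in all 9 fits that left out 1 array. Desmosomes anchor keratin filaments between cells, and 8 of 13 desmosomal genes were lower (median -1.43). Desmoplakin, Dsp, which binds the filaments, stood at 6.14, 6.97 and 5.30 against 9.83, 9.53 and 9.51, and was 11.2-fold lower (-3.49, SE 0.40, adjusted p = 0.0011). The desmosomal cadherins Dsg2 (-3.30) and Dsc2 (-2.84), the plakophilin Pkp1 (-2.38) and plakoglobin (Jup, -2.19) were lower too. E-cadherin (Cdh1), in no list and chosen after its values were seen, stood at 7.87, 8.37 and 6.64 against 11.04, 10.82 and 11.27.

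**Figure D2:**
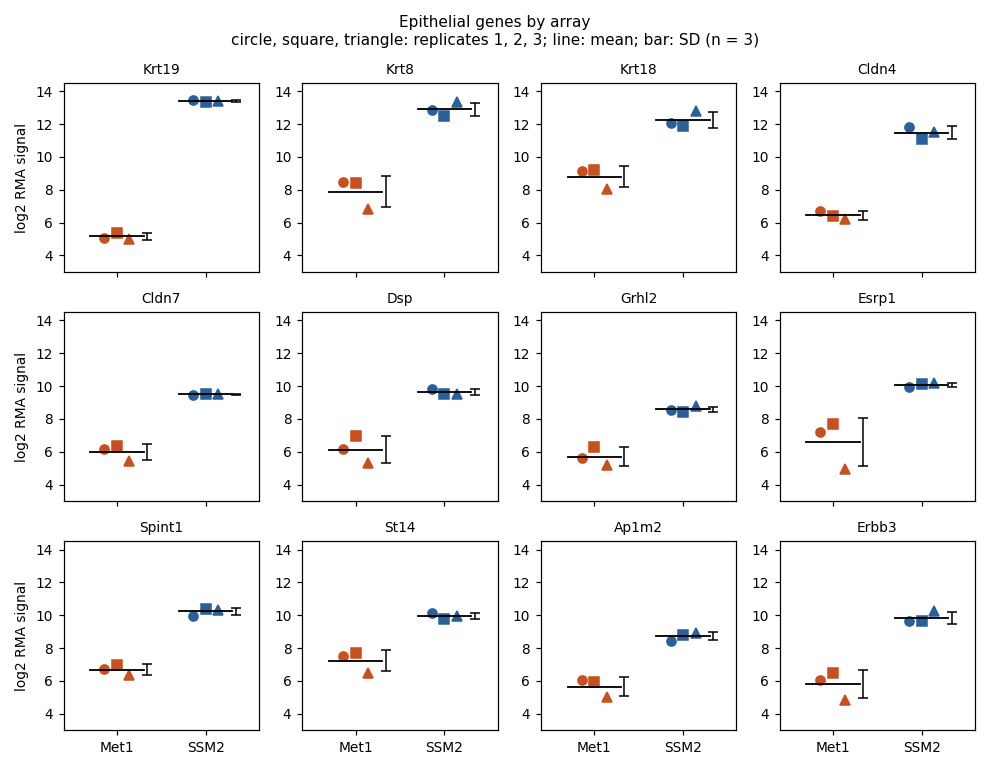
Log2 RMA signal of 12 genes of epithelial cells, the receptor Erbb3 included, in each Met1 (orange) and SSM2 (blue) array, with the mean (line) and SD (bar) of 3 arrays. In every panel the Met1 arrays lie below the SSM2 arrays, and Met1 replicate 3 (triangle) is the lowest Met1 array.

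Surface proteases of epithelia were lower with the junction genes. Of 9 membrane-anchored serine proteases and their inhibitors 7 were lower in Met1 (median -2.31) and none was higher. Spint1, an inhibitor of matriptase, stood at 6.74, 6.99 and 6.33 in Met1 and 9.98, 10.39 and 10.34 in SSM2. Matriptase itself, St14, stood at 7.5, 7.69 and 6.51 against 10.12, 9.76 and 9.98. Inhibitor and protease were thus both low in the same arrays, 11.7-fold for Spint1 (-3.55, SE 0.19, adjusted p = 3.39e-05) and 6.60-fold for St14 (-2.72, SE 0.28, adjusted p = 0.000583). The proteases Tmprss2 (-3.50) and Prss22 (-2.72) and a second inhibitor, Spint2 (-2.31), were lower as well. Genes of polarised trafficking were lower in 8 of 12 members and higher in 1 (median -1.08). Ap1m2, the subunit of the clathrin adaptor that sorts cargo to the basolateral side of epithelia, stood at 6.04, 5.91 and 4.99 against 8.43, 8.82 and 8.89 (-3.07, SE 0.29, adjusted p = 0.000382). Rab25 (-2.96), a GTPase of recycling endosomes, Myo5c (-1.52), Arhgef5 (-1.44) and Arhgef16 (-1.26) were also lower. The 1 higher member, Sytl4 (0.68), a Rab effector, lost its call without NDL replicate 1, without any 1 Met1 array and without SSM2 replicate 2.

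The upstream regions of several of these genes are shown because Zeb and Snai factors bind a defined DNA word, the E-box CAGGTG, which reads as CACCTG on the opposite strand. Of the measured genes of the tight junction and desmosome lists, 18 of 33 had an entry in the RefSeq promoter table (GRCm38.p6). The word stood, on either strand, within 250 bases before the start in 12 of 28 promoters of these genes (42.9%), since a gene can have several. It stood in 11 of 18 promoters (61.1%) of the keratin, protease and trafficking lists, and in 17.2% of all 32851 promoters. The 3 regions below, each written 5′ to 3′ on the gene's strand up to the base before its start, have the word in capitals. They are chr5:134946935-134947184 for Cldn4, chr15:102004343-102004592 for Krt8 and chr9:21312334-21312583 for Ap1m2, all on the minus strand.
Cldn4: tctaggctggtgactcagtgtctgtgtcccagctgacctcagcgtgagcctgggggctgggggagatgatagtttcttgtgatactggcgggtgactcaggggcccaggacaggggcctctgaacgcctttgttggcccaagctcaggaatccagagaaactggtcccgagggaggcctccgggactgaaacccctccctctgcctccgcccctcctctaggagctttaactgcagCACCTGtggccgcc
Krt8: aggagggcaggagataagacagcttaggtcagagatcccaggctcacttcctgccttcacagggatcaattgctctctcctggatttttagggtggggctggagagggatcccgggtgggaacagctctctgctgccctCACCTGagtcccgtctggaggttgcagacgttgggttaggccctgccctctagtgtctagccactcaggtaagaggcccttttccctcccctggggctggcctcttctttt
Ap1m2: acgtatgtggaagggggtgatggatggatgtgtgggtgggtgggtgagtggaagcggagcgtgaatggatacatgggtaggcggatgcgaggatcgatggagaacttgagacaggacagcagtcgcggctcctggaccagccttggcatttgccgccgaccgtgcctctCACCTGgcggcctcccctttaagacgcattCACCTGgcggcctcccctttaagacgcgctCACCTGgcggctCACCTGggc
The match begins 14 bases before the start in Cldn4 and 111 bases before it in Krt8. Ap1m2 has 4 matches, which begin 81, 51, 21 and 9 bases before the start. A match is a stretch of letters and not a measured binding site. Among the lower genes of these lists, the windows of Spint1, Dsp, Jup, Marveld2, Cldn3, Cgn, Tmprss2, Myo5c and Sytl1 hold none.

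Regulators of the epithelial state were lower in 8 of 17 members (median -0.84) and higher in none, or in 1 without Met1 replicate 3. Grhl2, a transcription factor of epithelial junction genes, stood at 5.62, 6.30 and 5.19 in Met1 and 8.57, 8.42 and 8.76 in SSM2 (-2.88, SE 0.27, adjusted p = 0.000399). The splicing regulators Esrp1, at 7.18, 7.71 and 4.95 against 9.92, 10.15 and 10.16, and Esrp2, at 5.86, 6.08 and 5.30 against 8.50, 8.53 and 8.21, were lower by 3.46 and 2.67 on the log2 scale. Each of the 3 regulators was below every SSM2 array in every Met1 array. The epithelial factor Elf3 was lower as well (-2.21). Foxa1, a pioneer factor of luminal and hormone-responsive cells, stood at 6.12, 6.12 and 5.28 against 9.25, 9.26 and 9.98 (-3.66, SE 0.29, adjusted p = 0.000203). Gata3, another luminal factor, did not pass (-0.84, adjusted p = 0.189).

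Mesenchymal genes went in both directions, 9 of 19 higher and 4 lower in Met1 (median 0.93). Without Met1 replicate 1 the lower count was 2. Cdh2, N-cadherin, stood at 8.65, 8.96 and 8.56 in Met1 and 5.28, 5.20 and 5.11 in SSM2. Twist1, a mesodermal transcription factor, stood at 10.34, 10.45 and 10.28 against 7.26, 6.99 and 6.46. S100a4, a calcium-binding protein of motile cells, stood at 9.41, 8.59 and 9.08 against 5.71, 5.96 and 5.82. All 3 genes were high in every Met1 array and the lines were far apart, 11.5-fold for Cdh2 (3.52, SE 0.13, adjusted p = 1.21e-05), 11-fold for Twist1 (3.46, SE 0.19) and 9.14-fold for S100a4 (3.19, SE 0.26). The receptor kinase Axl (1.92) and the filament protein vimentin (Vim, 1.75) were higher too. Of the repressors that bind the E-box shown above, looked up after the values were seen, Zeb1 (1.66) and Snai1 (1.48) were higher, Zeb2 did not pass (0.93, adjusted p = 0.166), and Snai2 was lower, at 6.04, 5.92 and 5.29 against 7.94, 7.98 and 7.15 (-1.94, SE 0.29, adjusted p = 0.00368). The member that fell most was Wnt5a, a Wnt ligand placed in this list for its link to motility, at 5.23, 5.46 and 4.57 against 11.26, 9.96 and 10.58. It was 45.6-fold lower in Met1 (-5.51, SE 0.36, adjusted p = 7.99e-05).

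The array also reads 296 microRNA precursors, of which 6 were higher and 2 lower in Met1 (2.70% called, against 11.8% of all genes). Their signal was low, with 179 of the 296 under the 25th percentile of genes, and a feature reads the precursor locus and not the mature microRNA. The precursors described here were chosen after their values were seen. MicroRNAs of the miR-200 family and miR-205 are known to repress Zeb1 and Zeb2, and miR-221 and miR-222 are known to target Esr1. The mature sequences from RefSeq (GRCm38.p6) are written 5′ to 3′ with the seed, bases 2 to 8, in capitals, since the seed sets which transcripts a microRNA can pair with.
miR-200b-3p: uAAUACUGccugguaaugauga
miR-200c-3p: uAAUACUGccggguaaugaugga
miR-200a-3p: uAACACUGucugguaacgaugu
miR-141-3p: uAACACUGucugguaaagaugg
miR-205-5p: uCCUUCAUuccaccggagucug
miR-221-3p: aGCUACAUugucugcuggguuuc
miR-222-3p: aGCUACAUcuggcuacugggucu
miR-200b and miR-200c share 1 seed, miR-200a and miR-141 share another, and miR-221 and miR-222 share a seed of their own. Mir200b lies at chr4:156055685-156055706 (mature arm, minus strand), next to Mir200a, and Mir221 at chrX:19146307-19146329, next to Mir222. Mir200b stood at 3.78, 4.01 and 3.68 in Met1 and 5.69, 4.55 and 4.74 in SSM2 (-1.17, SE 0.27, adjusted p = 0.0234). Mir205 stood at 4.16, 4.24 and 3.88 against 6.37, 5.79 and 4.87 (-1.58, SE 0.34, adjusted p = 0.0196). Both were lower in all Met1 arrays, which lay at the background level, and kept the call in 6 and 5 of the 9 fits that left out 1 array. SSM2 replicates 2 and 3 for Mir200b and SSM2 replicate 3 for Mir205 also lay under 4.91. Mir200a (-0.72, adjusted p = 0.0543), Mir141 (-0.57, adjusted p = 0.171) and Mir200c (-0.38, adjusted p = 0.203) did not pass. Mir221 stood at 6.10, 6.13 and 5.76 in Met1 against 5.03, 4.11 and 4.10, and Mir222 at 5.59, 5.05 and 5.72 against 4.83, 4.23 and 4.40. The pair that shares a seed was higher together, Mir221 2.99-fold (1.58, SE 0.26, adjusted p = 0.00541, called in all 9 such fits) and Mir222 1.95-fold (0.96, SE 0.22, adjusted p = 0.0224, called in 5 of 9). Their SSM2 means, 4.42 and 4.49, lay near background, so the size of these differences is uncertain.

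**Figure D3:**
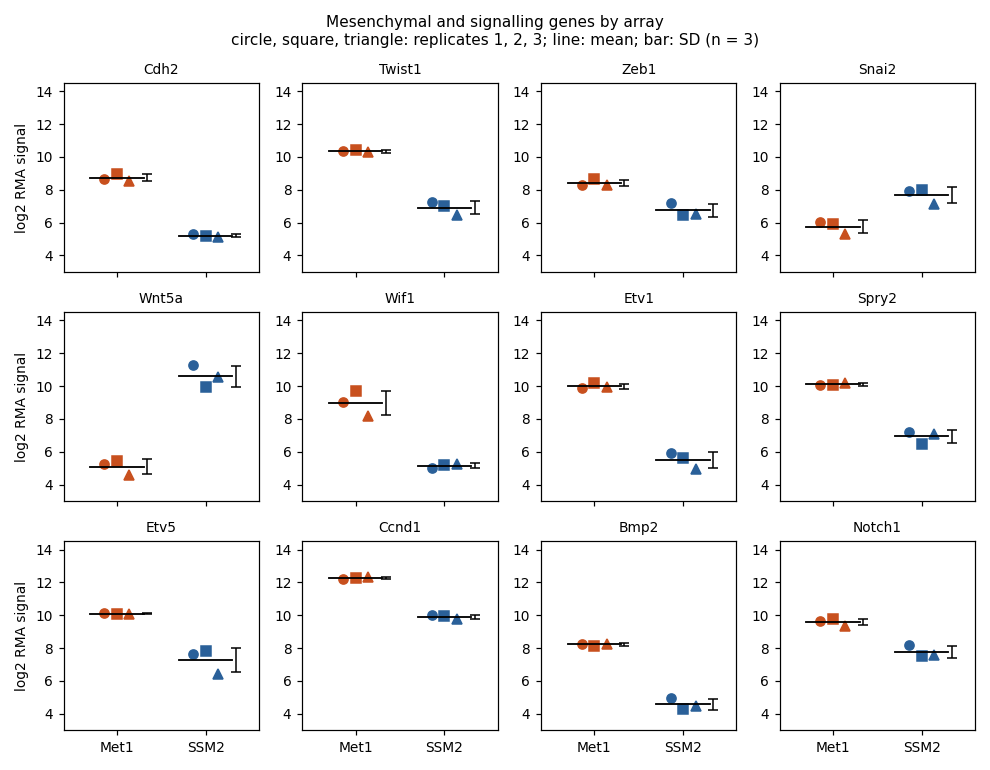
Log2 RMA signal of 12 mesenchymal and signalling genes in each Met1 (orange) and SSM2 (blue) array, with the mean (line) and SD (bar) of 3 arrays. Snai2 and Wnt5a are lower in Met1 and the other 10 genes higher, with no overlap between the lines. Of all genes, 18.6% lie above and 13.1% below in Met1 without overlap.

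Hormone-sensing genes were lower in 4 of 14 members and higher in 1 (median -0.60), and 8 were lower without SSM2 replicate 3. The progesterone receptor Pgr stood at 4.48, 4.49 and 4.52 in the Met1 arrays, at background, and at 10.33, 8.85 and 8.74 in SSM2. Esr1, the oestrogen receptor, stood at 7.0, 6.86 and 6.94 against 8.66, 9.46 and 9.18. Myb stood at 5.40, 5.58 and 5.63 against 8.31, 8.62 and 10.26, and Cited1, a coactivator of Esr1, at 6.62, 6.51 and 6.42 against 8.77, 10.62 and 10.26. In each of the 4 genes the Met1 arrays lay close together and below every SSM2 array, by 11.5-fold for Myb (-3.53, SE 0.43, adjusted p = 0.00139) and 10.3-fold for Cited1 (-3.37, SE 0.42, adjusted p = 0.00157). Stc1, a secreted stanniocalcin, was the higher member (1.84), and a second member was higher without SSM2 replicate 1. Milk and alveolar genes did not separate the lines: 1 of 15 was higher (3 without Met1 replicate 3) and 9 of the 15 had a mean under 4.91 in the lower line. The 1 called was Xdh, an enzyme also needed for milk fat secretion, at 9.85, 9.84 and 9.83 against 8.27, 7.86 and 6.29.

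Among 20 genes induced by or feeding back on ERK, 10 were higher and 1 lower (median 1.06), or lower in 2 without SSM2 replicate 1. The Etv factors act at the end of the pathway. Etv1 stood at 9.87, 10.16 and 9.93 in Met1 and 5.91, 5.60 and 4.96 in SSM2, and Etv5 at 10.11, 10.10 and 10.07 against 7.61, 7.80 and 6.41. Spry2, a feedback inhibitor, stood at 10.09, 10.05 and 10.20 against 7.21, 6.49 and 7.10. Met1 arrays agreed closely for these 3 genes and lay above every SSM2 array, 22.7-fold for Etv1 (4.50, SE 0.29, adjusted p = 7.99e-05), 7.06-fold for Etv5 (2.82, SE 0.31) and 9.03-fold for Spry2 (3.18, SE 0.20). Phlda1, another target of the pathway, was higher too (2.70), as was the receptor Epha2 (0.99). Dusp4 (-1.25), a nuclear ERK phosphatase, was the lower member. Dusp6, the cytoplasmic one, had a difference of 1.13 that did not pass (adjusted p = 0.0625), and the immediate early gene Egr1 had one of -0.08. Cyclin D1, Ccnd1, stood at 12.22, 12.29 and 12.31 against 10.00, 9.93 and 9.77, a 5.18-fold difference (2.37, SE 0.12, adjusted p = 2.24e-05). It was 1 of 2 genes called among 14 D cyclins, kinases and inhibitors of the G1 phase (14.3%, against 11.8% of all genes). The other was the CDK4 inhibitor Cdkn2c, also higher (1.91, SE 0.34, adjusted p = 0.00801). Genes of DNA replication were called higher in 2 of 25 members (Tk1, 0.97, and Cdc45, 0.77), or 8%, against 7.1% of all genes. Of 21 mitosis genes 3 (14.3%) were higher: Birc5 (1.37), Ccna2 (1.28) and Kif20a (1.01). No member of either list was lower, or 1 mitosis gene without NDL replicate 3. Tk1 and Birc5 lie in the same run of 15 neighbouring genes on chromosome 11, of which 10 were called higher. The 10 genes nearest to Ccna2 had a median difference of 0.72, with 4 higher. The mitosis count was 0 without Met1 replicate 2 or 3, and 1 without Met1 replicate 1, SSM2 replicate 1 or NDL replicate 1. The replication count was 1 without Met1 replicate 3. Mki67, the proliferation marker, had a difference of -0.01.

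Receptors and ligands split by family. Of 16 ErbB genes 3 were higher and 4 lower. Erbb3 stood at 6.08, 6.47 and 4.86 in Met1 and 9.67, 9.62 and 10.26 in SSM2, and Erbb2 at 7.63, 7.64 and 7.15 against 8.71, 8.98 and 8.71. The adaptor Grb7 (-2.64) and the ligand betacellulin (Btc, -2.86) were lower, while the ligand Hbegf was higher (1.68). Erbb3, the partner receptor of Erbb2, was 16.6-fold lower in Met1 (-4.05, SE 0.39, adjusted p = 0.000421). FGF receptors were lower where they passed: Fgfr2 stood at 5.35, 5.76 and 4.88 against 9.41, 9.13 and 7.65 (-3.40, SE 0.44, adjusted p = 0.00187), and Fgfr3 at 6.76, 6.69 and 6.86 against 9.44, 8.44 and 8.06 (-1.88). The decoy receptor Fgfrl1 was higher (1.58). Of 18 FGF genes 4 were lower and 1 higher, or 2 higher without SSM2 replicate 1. Among 18 other receptor tyrosine kinases 5 were higher and 1 lower, led by Axl, and the collagen receptors Ddr2 (1.33) and Ddr1 (-0.89) went opposite ways. That count of 5 was 1 without Met1 replicate 1 or 2, 2 without Met1 replicate 3, SSM2 replicate 2 or NDL replicate 1, and 3 without NDL replicate 2 or 3, and 2 genes were lower without NDL replicate 3. The fetal growth factor Igf2 was lower (-3.36, SE 0.42, adjusted p = 0.00159) and its clearance receptor Igf2r higher (1.72, SE 0.13, adjusted p = 0.000168). Igf2 stood at 5.44, 5.32 and 5.35 in Met1 and 9.12, 9.48 and 7.59 in SSM2.

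In the Wnt pathway, ligands, receptors, antagonists and targets were considered apart. Of 19 ligands 2 were lower, Wnt5a and Wnt11 (-1.13), and none higher (10.5% called, near the 11.8% of all genes). Without Met1 replicate 1 or 2, 1 ligand was lower, and without SSM2 replicate 3 it was 4. Of 11 secreted antagonists 2 were called higher and none lower, or 1 lower without SSM2 replicate 3, while the list median was -0.46 and 8 members had a difference below 0. Wif1, which binds Wnt proteins, stood at 9.02, 9.68 and 8.19 in Met1 and 5.00, 5.20 and 5.27 in SSM2. Notum, an enzyme that removes the lipid Wnt proteins need, stood at 6.33, 6.47 and 7.16 against 5.15, 5.02 and 5.27 (1.5, SE 0.21, adjusted p = 0.00245). Target genes were higher in 4 of 10 members and lower in none, or in 1 without SSM2 replicate 1. These were Ccnd1, which also answers to ERK, Apcdd1 (1.28), Cd44 (1.18) and Axin2 (0.68). Axin2, the most direct of these targets, stood at 6.46, 6.50 and 6.16 against 5.78, 5.68 and 5.63 (adjusted p = 0.00825). The ubiquitin ligase Rnf43, which removes Wnt receptors, was higher (1.18) and the receptor Fzd6 lower (-1.52), among 2 higher and 2 lower of 21 receptor and R-spondin genes (19% called). There were 4 higher without SSM2 replicate 3, and 1 lower without NDL replicate 1 or 2, Met1 replicate 1 or 3, or SSM2 replicate 1 or 2. Wnt5a, a ligand that mostly acts outside the beta-catenin route, was thus low where the target Axin2 was high.

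BMP genes also split between ligand types. Bmp2 stood at 8.26, 8.14 and 8.27 in Met1 and 4.95, 4.28 and 4.47, near background, in SSM2. Bmp7 stood at 6.11, 5.83 and 5.80 against 7.95, 8.46 and 7.54. So the 2 ligands were opposite in the lines, Bmp2 12.6-fold higher (3.65, SE 0.17, adjusted p = 2.01e-05) and Bmp7 4.20-fold lower (-2.07, SE 0.22, adjusted p = 0.000732) in Met1. Gdf11, another ligand of the superfamily, was higher (1.99), and over 16 ligands 2 were higher and 3 lower, or 1 lower without Met1 replicate 1. Of 23 receptors and antagonists 4 were higher and 2 lower, or 2 higher without SSM2 replicate 2. The co-receptor Tgfbr3 was higher (1.89), and follistatin (Fst, -1.55), which traps activins and BMPs, was lower. Of 11 targets 4 were higher: Id2 (2.34), Smad7 (1.51), Id1 (1.41) and Atoh8 (0.83). Ccn2, a matrix protein induced by TGF-beta, was the 1 lower (-1.74). Without Met1 replicate 1 or 2 or SSM2 replicate 2 only 2 targets were higher. Id1 stood at 9.74, 9.60 and 9.27 against 8.11, 8.13 and 8.14 (adjusted p = 0.000952). Notch receptors were unequal, Notch1 at 9.66, 9.75 and 9.37 against 8.17, 7.49 and 7.56 (1.85, SE 0.24, adjusted p = 0.00203) and Notch3 at 6.47, 6.76 and 6.39 against 8.13, 8.07 and 8.43 (-1.67, SE 0.15, adjusted p = 0.000304). Over 19 Notch genes 3 were higher and 2 lower, the lower being Notch3 and the ligand Jag1 (-0.85), and 1 was lower without Met1 replicate 1 or 2. Of 31 semaphorin, plexin and neuropilin genes 5 were higher and 2 lower (22.6% called). Of 20 ephrin and Eph genes 4 were higher and 2 lower (30% called). The lower count of semaphorin genes was 1 without NDL replicate 1 or 2, any 1 Met1 array or SSM2 replicate 1, and that of ephrin and Eph genes was 1 without any 1 Met1 array, SSM2 replicate 2 or SSM2 replicate 3. No ephrin or Eph gene was higher without NDL replicate 1, Met1 replicate 1 or Met1 replicate 2, 1 was without SSM2 replicate 2 and 2 were without Met1 replicate 3. Named guidance genes were Sema5a (2.18), Nrp2 (1.65) and Sema3f (1.48) on the higher side and Sema3c (-1.97) and Epha1 (-1.87) on the lower. Of 37 Hox genes 1 was called, Hoxc6 (-0.46), and it kept its call in 0 of the 9 fits without 1 array.

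**Figure D4:**
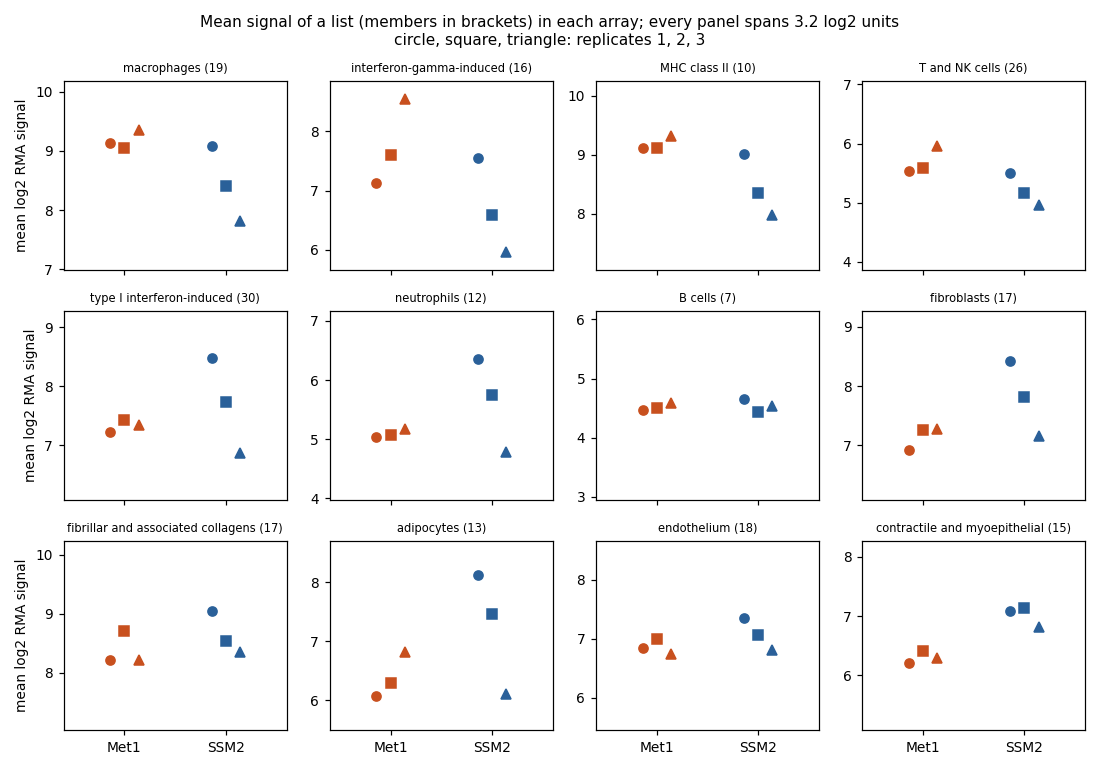
Mean log2 RMA signal of 12 lists of immune, stromal and related genes in each array (orange Met1, blue SSM2), with every panel spanning the same range of log2 units. SSM2 replicate 3 (triangle) is the lowest SSM2 array in every panel but that of B cells, for example 6.11 against 8.12 and 7.46 in the adipocyte list.

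Immune transcripts differed between the lines by class, and in whole tumours fewer cells of a type and less RNA per cell cannot be told apart. Macrophage genes were higher in 8 of 19 members and lower in 2 (median 1.07). The list mean was 9.14, 9.05 and 9.35 in Met1 and 9.09, 8.41 and 7.82 in SSM2, so that SSM2 replicate 1 lay within the Met1 range. Cx3cr1, the fractalkine receptor, stood at 10.14, 10.04 and 9.62 against 8.38, 7.41 and 7.12 and was 4.90-fold higher (2.29, SE 0.30, adjusted p = 0.00197). Its ligand Cx3cl1 stood at 9.85, 9.81 and 9.42 against 8.81, 8.19 and 8.00 (1.36, SE 0.22, adjusted p = 0.00518). Csf1, the growth factor of macrophages, stood at 9.23, 9.21 and 9.35 against 7.74, 7.47 and 6.48 (2.04, SE 0.29, adjusted p = 0.00294), and the second ligand of its receptor, Il34, was higher as well (0.84). Both ligand and receptor of the fractalkine pair, and both ligands of Csf1r, were thus higher in Met1. Csf1r itself stood at 10.90, 10.88 and 10.70 against 10.20, 9.10 and 8.52 (1.56, adjusted p = 0.0423) and kept its call in 3 of 9 fits. Opposite to the list, the haemoglobin scavenger receptor Cd163, a marker of alternatively activated macrophages, stood at 4.90, 4.89 and 6.44 against 9.01, 8.24 and 7.81 (-2.94, SE 0.44, adjusted p = 0.00353). The complement chain C1qa, a product of tissue macrophages, was higher (1.37). The defining marker Adgre1 did not pass (0.71, adjusted p = 0.248). The count of 8 was 1 without Met1 replicate 3, 2 without Met1 replicate 1 or SSM2 replicate 2, 3 without Met1 replicate 2, 4 without SSM2 replicate 3 and 5 without NDL replicate 1, and 1 gene was lower without Met1 replicate 1 or 2.

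All 26 T and NK cell genes had a difference above 0, against 57.5% of all genes, and 8 of them had a mean near background in the lower line. The list mean was 5.53, 5.58 and 5.96 in Met1 and 5.51, 5.16 and 4.96 in SSM2, so that SSM2 replicate 1 lay close to Met1 replicates 1 and 2. Called were 3: Cd3g (1.52), Nkg7 (1.44) and Cd8a (1.05). Cd3g stood at 6.91, 7.04 and 7.55 in Met1 and 6.27, 5.54 and 5.14 in SSM2, with no overlap (SE 0.32, adjusted p = 0.018). The count was 0 without Met1 replicate 3 or SSM2 replicate 2, 1 without Met1 replicate 2 and 6 without SSM2 replicate 1. Genes induced by interferon-gamma were higher in 5 of 16 members (median 1.10) and lower in none, or in 1 without SSM2 replicate 3. Gbp4, a guanylate-binding protein, stood at 8.70, 9.65 and 10.48 against 8.20, 6.37 and 5.72, and Cxcl9, a chemokine for activated T cells, at 7.88, 8.86 and 10.26 against 7.31, 6.57 and 5.49. The arrays of each line were widely spread in both genes, and Met1 replicate 3 was the highest. Gbp4 (2.84, SE 0.64, adjusted p = 0.0228) and Cxcl9 (2.54, SE 0.64, adjusted p = 0.0361) kept their calls in 5 and 4 of 9 fits. The count of 5 fell to 0 without SSM2 replicate 2, to 1 without Met1 replicate 2 or 3 or SSM2 replicate 3, and to 3 without Met1 replicate 1 or NDL replicate 1. Of 30 genes induced by type I interferon none was called in either direction by limma, 21 had a difference below 0, and 6 were lower without SSM2 replicate 3. Ifit3 stood at 5.76, 5.99 and 5.99 in Met1 and 9.31, 8.29 and 5.95 in SSM2, so that SSM2 replicate 3 lay among the Met1 arrays. Jak2, a kinase of interferon-gamma and cytokine receptors, stood at 7.45, 7.98 and 7.46 against 10.82, 10.13 and 10.99 (-3.02, SE 0.65, adjusted p = 0.0185, called in 6 of 9 fits). The transcription factor Irf8 was higher (1.2) and the receptor Ifnlr1 lower (-0.63), but the counts of this list of 19 receptor and signalling genes, 1 higher and 2 lower, ranged from 0 to 3 and from 0 to 4 over the fits without 1 array.

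Antigen presentation genes included a pair that differed in opposite directions. Of 10 class II genes 4 were higher and 1 lower (median 1.10). The invariant chain Cd74 stood at 11.59, 11.70 and 11.79 against 11.04, 10.19 and 9.52 (1.44, adjusted p = 0.0379, called in 3 of 9 fits). The 2 chains of the E molecule were opposite. H2-Ea, the alpha chain, stood at 7.03, 7.19 and 7.36 in Met1 and at 4.61, 4.51 and 4.65, near background, in SSM2. H2-Eb1, the beta chain, stood at 7.79, 7.66 and 7.78 in Met1 and 11.33, 10.26 and 9.62 in SSM2. Replicates were close for H2-Ea in both lines, and neither gene overlapped between them. H2-Ea was 6.08-fold higher (2.60, SE 0.11, adjusted p = 1.31e-05) and H2-Eb1 6.33-fold lower (-2.66, SE 0.39, adjusted p = 0.0035) in Met1. The A molecule did not pass, with H2-Aa at 1.16 (adjusted p = 0.093) and H2-Ab1 at 0.11. The count of 4 higher was 2 without NDL replicate 1, any 1 Met1 array, SSM2 replicate 2 or SSM2 replicate 3, and 7 without SSM2 replicate 1. In class I presentation 1 of 17 genes was called, the proteasome activator Psme1 (0.67), and 15 had a difference above 0. That count was 0 without any 1 Met1 array or SSM2 replicate 3 and 2 without SSM2 replicate 1.

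Cytokines of the tumour cells or host added 4 higher and 1 lower of 18 interleukins and colony-stimulating factors. Il33, an alarmin of epithelial and stromal cells, stood at 7.09, 7.22 and 5.63 in Met1 and 10.96, 11.26 and 9.92 in SSM2, 16.8-fold lower in Met1 (-4.07, SE 0.50, adjusted p = 0.00147). The IL-18 receptor chain Il18r1 stood at 3.73, 4.20 and 4.66 against 9.97, 9.42 and 9.38 (-5.39, SE 0.42, adjusted p = 0.000191), while its ligand Il18 was higher (1.28). Csf3 was higher too (1.30). Without Met1 replicate 1, SSM2 replicate 2 or SSM2 replicate 3 the higher count was 2, and without SSM2 replicate 3 the lower count was 3. Of 30 chemokines 2 were higher and 2 lower (13.3% called, near the 11.8% of all genes). The lower ones were Cxcl14 (-2.20, adjusted p = 0.0488) and Cxcl15, which stood at 12.76, 12.33 and 6.64 in SSM2 and at background in Met1, at 3.74, 3.58 and 3.72. The higher ones were Cxcl9 and Cx3cl1. Over the fits without 1 array the higher count ranged from 1 to 4 and the lower from 1 to 5. For Cxcl15 the difference of -6.89 had an SE of 1.36, since SSM2 replicate 3 lay far below the other 2. Complement gave 2 higher and 1 lower of 15, the protease C1s1 (-2.40) being the lower, and over the fits without 1 array these counts ranged from 0 to 4 and from 0 to 3. No B cell gene (of 7) or neutrophil gene (of 12) passed in limma, and without SSM2 replicate 3 there were 3 lower neutrophil genes.

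Stromal and matrix genes were divided. Of 17 fibroblast genes 2 were higher and 3 lower. Decorin, Dcn, stood at 6.94, 8.07 and 8.75 in Met1 and 12.81, 12.54 and 10.10 in SSM2, 14.9-fold lower (-3.89, SE 0.73, adjusted p = 0.0103). Mfap5 (-2.53) and Islr (-1.95) were lower, while Dpt (1.84) and the receptor Pdgfra (1.54) were higher. Those higher calls did not hold without NDL replicate 1, any 1 Met1 array or SSM2 replicate 2, where none of the list was higher, nor both without NDL replicate 2 or 3 or SSM2 replicate 3, where 1 was. The lower count of 3 was 5 without SSM2 replicate 3. Among 17 collagens 5 were higher and 5 lower. Col11a1 stood at 9.13, 9.55 and 9.27 against 6.61, 6.67 and 6.47 (2.73, SE 0.29, adjusted p = 0.000799), and Col6a1 at 10.85, 10.83 and 10.68 against 9.46, 9.22 and 8.33 (1.78). Col1a2 (-1.66), Col5a2 (-2.14) and Col8a1 (-2.10) were lower, as was Col3a1 (-1.6), and Col1a1 had a difference of -1.41 that did not pass (adjusted p = 0.0657). Fibrillar chains thus lay on both sides, Col11a1 higher and Col1a2, Col3a1 and Col5a2 lower, and the type VI chain Col6a2 (1.13) was higher with Col6a1. The lower count was 2 without Met1 replicate 1, 3 without Met1 replicate 3, SSM2 replicate 1 or SSM2 replicate 2. In the basement membrane list (5 of 22 higher, 3 lower) the epithelial laminin chain Lamb3 stood at 6.83, 7.18 and 6.20 against 9.65, 9.24 and 9.85 (-2.84, SE 0.35, adjusted p = 0.00142), while Lamb1 (1.49) and Col4a5 (1.58) were higher. The higher count was 2 without Met1 replicate 1 or 2 and 3 without Met1 replicate 3 or SSM2 replicate 2. Integrins were higher in 6 of 25 members and lower in 1. Itga8 stood at 9.79, 10.28 and 8.91 against 5.73, 5.93 and 5.33 (4.00, SE 0.37, adjusted p = 0.000376). The epithelial Itgb6, at 4.49, 4.66 and 4.34 against 9.14, 9.58 and 5.95 (-3.73, adjusted p = 0.0183), lost its call without any 1 Met1 array, without SSM2 replicate 1 and without SSM2 replicate 2. The leukocyte integrins Itgam (1.79) and Itgal (1.61) were higher, and so was the fibronectin receptor chain Itga5 (1.12). Without SSM2 replicate 1 there were 10 higher integrins.

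Among matrix enzymes and inhibitors 4 of 26 were higher and 4 lower. The peptidase Mme stood at 9.76, 10.21 and 9.57 in Met1 and 5.84, 4.97 and 3.90 in SSM2. The inhibitors Timp2 (2.07) and Timp3 (1.66) were higher, and Mmp14, a membrane collagenase that Timp2 binds, stood at 9.34, 9.43 and 9.12 against 11.56, 11.33 and 10.23 (-1.74, SE 0.30, adjusted p = 0.00738). Inhibitor and enzyme were opposite. The 4 higher were 2 without Met1 replicate 1 or 2 or SSM2 replicate 2, and the 4 lower were 1 without Met1 replicate 3 and 2 without NDL replicate 1, Met1 replicate 1 or 2, or SSM2 replicate 1 or 2. Endothelial genes gave 1 call in each direction: the VEGF receptor Flt1 at 9.38, 9.63 and 8.92 against 7.44, 7.06 and 7.39 (2.01, SE 0.18, adjusted p = 0.000345), and Vwf at 6.32, 6.46 and 6.14 against 7.73, 7.68 and 7.44 (-1.31, SE 0.15, adjusted p = 0.0011). Pecam1, the general endothelial marker, did not pass (-0.47, adjusted p = 0.057), and 4 endothelial genes were lower without SSM2 replicate 3, against 3 when NDL replicate 3 was left out and 2 when NDL replicate 2 was. Contractile genes were lower in 2 of 15, Acta2 (-2.93) and Tagln (-2.05), or 5 without SSM2 replicate 3. None was higher, and the 13.3% called was near the 11.8% of all genes. None of 13 adipocyte genes passed in limma, with 5 lower without SSM2 replicate 3 and 1 without Met1 replicate 3. Adipoq stood at 4.07, 4.45 and 6.02 against 8.31, 7.58 and 5.44 (adjusted p = 0.113).

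Metabolic lists held calls in both directions. Cholesterol synthesis was higher in 7 of 19 members and lower in 1 (median 0.47). Insig1, a sterol sensor, stood at 10.14, 9.97 and 9.96 in Met1 and 8.84, 8.87 and 8.46 in SSM2 (1.31, SE 0.15, adjusted p = 0.00126), and Dhcr7 (1.25), Hsd17b7 (1.24) and Lss (0.73) were also higher. Sqle, squalene epoxidase, went the other way, at 9.38, 9.29 and 9.59 against 10.83, 10.57 and 10.44 (-1.19, SE 0.13, adjusted p = 0.000966). The higher count was 3 without Met1 replicate 1, Met1 replicate 3 or SSM2 replicate 1, and 4 without Met1 replicate 2. Fatty acid synthesis gave 5 higher, with Fasn (1.25) and Acss2 (1.37), and 4 lower of 18, with Elovl7 (-1.97), Fads3 (-1.66) and Gpam (-1.42). In glycolysis and hypoxia 5 of 29 were higher and 1 lower. Car9, a carbonic anhydrase induced by hypoxia, stood at 8.63, 8.44 and 9.55 against 6.27, 5.87 and 6.12 (2.78, SE 0.26, adjusted p = 0.00039), and Eno2, an enolase, at 8.10, 7.76 and 8.49 against 5.70, 5.57 and 5.25 (2.61, SE 0.19, adjusted p = 0.000144). Ndrg1, also hypoxia-induced, was lower (-1.53), and Vegfa did not pass (1.03, adjusted p = 0.244). The higher count was 13 without SSM2 replicate 3, and 3 without SSM2 replicate 1, without any 1 Met1 array or after cyclic loess, and Ndrg1 was not called without Met1 replicate 1 or 2. Of 21 genes of amino acid synthesis and the ATF4 programme 5 were higher, among them the transporter Slc7a5 (1.48), Psat1 (1.38) and Mthfd2 (1.5), and 3 were higher without NDL replicate 1, any 1 Met1 array, SSM2 replicate 1 or SSM2 replicate 2.

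Endoplasmic reticulum stress genes were higher in 3 of 18, with the chaperone partner Sdf2l1 (0.92) and the disulfide isomerase Pdia6 (0.87), and 2 were lower without SSM2 replicate 3. Of 15 p53 target genes 1 was called in each direction, Sesn2 (0.65) and Plk2 (-0.71), and these were called in 2 and 5 of the 9 fits without 1 array.

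Glutathione genes were lower where they passed, in 3 of 22 antioxidant genes. Gsr, glutathione reductase, stood at 8.22, 8.39 and 8.16 in Met1 and 11.08, 10.53 and 11.05 in SSM2, and Gclc, the catalytic subunit of glutathione synthesis, at 7.82, 8.05 and 7.89 against 9.97, 9.44 and 9.75. Both were tight within a line and separate between lines, 6.18-fold lower for Gsr (-2.63, SE 0.16, adjusted p = 7.16e-05) and 3.48-fold lower for Gclc (-1.80, SE 0.17, adjusted p = 0.000377). Gsto1 was the other (-1.15). Gsr and Gsto1 both lie in stretches of neighbouring genes that were lower in Met1, described below, and the part of position was not tested. Retinoid genes were lower in 5 of 18 and higher in 1 (median -0.67): Rbp4 (-4.79), the carrier of retinol, Rdh10 (-2.30), the first oxidising enzyme, Crabp2 (-2.0), the uptake receptor Stra6 (-1.92) and Aldh1a2 (-1.65), against Rara (0.92). Rbp4 stood at 4.33, 4.67 and 4.83 in Met1, near background, and at 10.38, 10.72 and 7.10 in SSM2 (SE 0.81), so the size of its difference is uncertain. Rdh10 stood at 7.89, 7.97 and 7.95 against 10.91, 10.27 and 9.55 (SE 0.29, adjusted p = 0.00152). The lower count was 3 without any 1 Met1 array and 8 without SSM2 replicate 3, and Rara was not called without NDL replicate 1, Met1 replicate 1 or 2, or SSM2 replicate 2 or 3. Ribosome biogenesis (19 genes) and prostaglandin genes (19) had no call in limma, with at most 1 and 3 in a direction over the fits without 1 array. Complex I (34, 8.82% called against 11.8% of all genes) had 2 higher, 0 without NDL replicate 1, any 1 Met1 array, SSM2 replicate 1 or SSM2 replicate 2. It had 1 lower, Ndufs4 (-1.02), with 2 or 3 lower without NDL replicate 2 or any 1 of SSM2 replicates 1 and 3.

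Beyond the lists, the genes ranked 9 to 20 by difference in each direction included several with a clear known role. Higher in Met1 were Ndp (3.45), a ligand of Fzd4 outside the Wnt family, Fat4 (3.39), an atypical cadherin, Adgrl3 (3.32), an adhesion receptor, Camk2d (3.23), a calmodulin-dependent kinase, Elovl4 (3.43), a fatty acid elongase, Ecrg4 (3.62), Adamtsl3 (3.56), Bpifb4 (3.73) and Glrb (3.2). Fat4 stood at 9.0, 8.91 and 9.20 in Met1 and 6.07, 5.44 and 5.44 in SSM2. Lower were the serpin Serpinb5 (-4.63), Mal2 (-4.59), a transcytosis protein of polarised cells, Mtmr7 (-4.57), Plac8 (-4.52) and Tlcd4 (-4.50). Mal2 stood at 4.60, 4.58 and 4.35 against 9.33, 8.96 and 9.03, with Met1 at background.

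Differences also followed position along the chromosomes. Genes with a mean over the 6 arrays above the median signal (9941) were placed in RefSeq order, and 11.6% of them were called higher and 7.54% lower. On chromosome 12 those shares were 30.1% and 1.43%, on chromosome 3 26.3% and 3.29%, and on chromosome 19 5.01% and 24.2%. The median difference was 0.41 on chromosome 12, 0.39 on chromosome 3 and -0.39 on chromosome 19, against 0.03 over all these genes. Single arrays showed the same: relative to each gene's mean over the 6 arrays, the chromosome 12 median was 0.11, 0.19 and 0.31 in Met1 and -0.22, -0.24 and -0.13 in SSM2, and the chromosome 19 median was -0.15, -0.22 and -0.24 against 0.14, 0.18 and 0.28. No array of one line lay within the range of the other on either chromosome. DNA copy number was not measured.

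**Figure D5:**
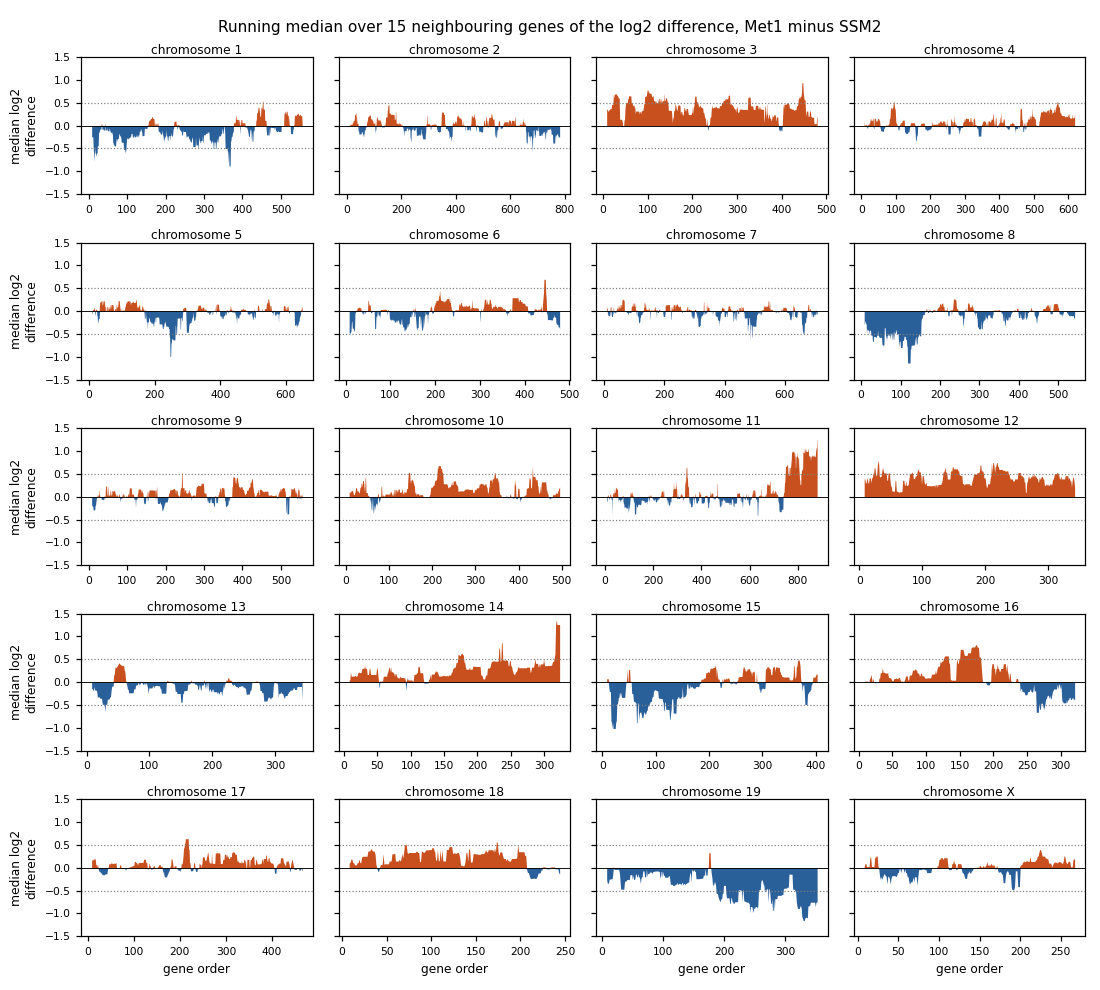
Running median over 15 neighbouring genes of the log2 difference, Met1 minus SSM2, along each chromosome in gene order, with dotted lines at 0.5 and -0.5. Chromosomes 3 and 12 lie above 0 over most of their length, the end of chromosome 11 is high, and the start of chromosome 8 and the end of chromosome 19 are low.

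Windows of 15 neighbouring genes whose median was at least 0.5 in size were joined where they overlapped, and 15 of the resulting stretches held at least 30 genes, 9 higher and 6 lower. A stretch holds all genes of its windows, so the running median at its outer genes can lie under 0.5. The rule was chosen after the values were seen and is given as a description. The longest lower one covered 152 genes at the start of chromosome 8, from Camsap3 to Ddx60, with 51 called lower and 2 higher (median -0.56). The strongest long one covered the last 147 genes of chromosome 11, from Slc16a6 to B3gntl1, with 92 called higher and 4 lower (median 0.87). Chromosome 19 held 2 lower stretches, from Lpxn to Gbf1 (124 genes, median -0.67) and from Sufu to Csf2ra (51 genes, median -0.83). These stretches held 9.70% of the genes considered and 19.9% of the calls among them, calls against a stretch's direction included. The windows were picked for large differences, so a larger share of calls inside them was built into the rule. In the run from Rfng to B3gntl1 at the end of chromosome 11, 14 of 15 genes were called higher, with Fn3krp (2.07), Ogfod3 (1.98), Rfng (1.38) and Foxk2 (1.37), and only Slc16a3 was not called (0.53, adjusted p = 0.322). A run of chromosome 14 from Spry2 to Ubac2 had the highest median, 1.36, with all 15 genes above 0 and Spry2 (3.18), Gpc6 (2.71), Dock9 (1.95) and Ubac2 (1.51) among its 5 calls. The lowest run, from Col17a1 to Vti1a on chromosome 19, had a median of -1.15 and 10 of 15 genes called lower, with Pdcd4 (-2.89), Col17a1 (-1.79), Gpam (-1.42) and Vti1a (-1.27). On chromosome 8 the run from Tusc3 to Tlr3 had a median of -1.14, with 6 genes called lower, 1 called higher and 3 of 15 above 0. Mtmr7, Slc7a2 (-1.75), Fat1 (-1.51) and Vps37a (-1.33) were among the lower ones, Slc7a2 and Vps37a being called in 2 and 4 of the 9 fits without 1 array. The higher one was the scavenger receptor Msr1 (1.28).

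Several genes of the lists above lie in such stretches, and their neighbours are given beside them. Among the 10 nearest genes considered, the median difference was -0.70 for Jak2, with 4 lower, and -0.87 for Gsr, with 6 lower. It was 0.99 for Fasn, with 8 higher, 1.10 for Timp2, with 7 higher, and 0.87 for Rfng, with 8 higher. The differences of Jak2 (-3.02), Gsr (-2.63) and Timp2 (2.07) were larger than these medians, while that of Fasn (1.25) was near its own. Keratin genes lie beside each other, so the neighbours of Krt19 (median -1.72, with 5 lower) include other keratins. Etv1, Etv5, Mme and Il33 also lie in stretches. Their neighbour medians were 0.41 for Etv1, with 4 higher, 0.53 for Etv5, with 3 higher, 0.59 for Mme, with 3 higher, and -0.47 for Il33, with 2 lower. The lower members of the ERK, cholesterol, and glycolysis and hypoxia lists (Dusp4, Sqle and Ndrg1) lie in stretches as well, as do Gsto1, Tk1 and Birc5. The neighbour median was -0.59 for Dusp4, with 4 lower and 1 higher, and 0.79 for Birc5, with 7 higher. Acta2, Btc and Rbp4 also lie in stretches. For Btc the neighbour median was -1.10, with 3 lower, and for Acta2 it was -0.61, with 1 lower and 1 higher. Outside the stretches, the neighbour medians were -0.16 for Cldn4, 0.00 for Cdh2 and 0.08 for Wnt5a. Other genes outside them had neighbours that differed: the median was 0.68 for Col6a1, with 6 higher, and 0.68 for Col6a2, with 5 higher. The part of position in these results was not tested.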

How the data were processed

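RNA (100 ng) from snap-frozen mammary tumours was hybridised to Affymetrix Mouse Gene 1.0 ST arrays, 1 per sample, 3 for each of 3 lines. The deposited table holds log2 RMA values, made by the authors with oligo 1.40.2 per the submitters' processing notes. It has 35556 features. Of these, 21789 carry 1 gene symbol, 1621 several and 12146 none; 21766 symbols were matched to RefSeq (GRCm38.p6) and 23 were kept as given. Each of 19938 genes was read from 1 feature; where a gene had several (999 genes), the brightest on average across the 9 arrays was kept.

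The arrays were fitted together with limma 3.58.1 (lmFit and eBayes, in R 4.3.3), with 6 residual and 2.42 prior degrees of freedom. Every adjusted p in the text is limma's for Met1 minus SSM2, with Benjamini-Hochberg adjustment over all genes, and a gene was called at an adjusted p under 0.05. The fit was tested on simulated data. Members were described by 60 gene lists (1112 of 1176 entries measured). Members and lists were chosen with earlier results of these data known. Genes were named by rule: up to 5 called members of each list with the largest differences, ranks 9 to 20 in each direction without overlap, up to 4 genes of each of the 2 most extreme runs of 15 neighbours in each direction, uncalled defining members, and reference genes, of which the remaining 1 is not analysed here. Cdh1, Epcam, Vim, Zeb1, Zeb2, Snai1, Sytl4, Dusp4, Col3a1, Col6a2, Rara, Msr1 and the microRNA genes fall outside it and were chosen after their values were seen. Stretches and motif counts are descriptions. Figures were drawn with matplotlib 3.10.9. Alternatives covered filters on dim genes, normalisation, variance modelling, the choice of feature, a replicate block and leaving out each array. The labels name no scan date, and no batch was tested.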

Additional observations from a re-analysis of the deposited data

How the results depend on the processing

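Of the 2356 calls, 1416 higher and 940 lower, the total was 3724 and the lower count 1661 with array weights, and the 1212 calls of at least 2-fold were 541 when limma's treat tested against a minimum fold of 1.5, a stricter hypothesis by construction. Leaving out 1 array gave 1360 to 2754 calls, 827 to 1607 higher, 533 to 1166 lower and 947 to 1322 of at least 2-fold; the low ends were without Met1 replicate 1. The other causes were not tested. Filters, other normalisations, an intensity trend, averaged features and the 6 arrays alone kept each of these counts within 1.5 times. With the replicate number as a block there were 1968 calls (1152 higher, 816 lower). Same-numbered arrays deviated from their group means with correlations of -0.164, -0.164 and -0.056, which show no positive pairing by number. Arrays with different numbers were not set beside them, so shared handling by number cannot be judged from these values. Of 256 named genes none changed direction in 4563 comparisons with an alternative. Of them 252 were called, and most were picked for large differences in these same arrays, so a change of direction was unlikely from the start. A call was lost in 488 of these and gained in 7. Of 2160 list counts under an alternative, 1778 stayed within 1.5 times. Chromosome, stretch and motif values were not recomputed. Signals near background limit the size of a difference.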
